A study of Homo sapiens with 8 samples.

Results

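The glutathione and thioredoxin systems are the 2 main thiol-based defences of the cell against peroxides, and 10 genes of these systems were followed here in CYP2C19-overexpressing HepG2 cells treated with plastic-related compounds. The genes were GCLC, GCLM, GSS, GSR, GPX2, GPX4, TXN, TXNRD1, SRXN1 and PRDX1. They were selected by gene symbol, with earlier results of these data known, and make up 10 of the 60230 genes in the count table. HepG2 is a line from a human liver tumour, and the cells used here carried an introduced CYP2C19, a cytochrome P450 enzyme that oxidises drugs and other foreign compounds. Cells of all 4 groups carried it, and no group of HepG2 cells without it was analysed here. The groups, with 2 samples each, were cells given DMSO, the solvent, and cells given compound 4, 5 or 6, each at the concentration that inhibited growth by 50% in the study's own assay. All 3 compounds are phenolic antioxidants added to plastics, made of a pair of phenol rings joined by a short carbon bridge. Columns of the count table call compound 4 metylcresol, compound 5 tetrabut and compound 6 cyclohexil. The cells were harvested after a day of treatment, and the labels name the 2 samples of a group day 1 and day 2, here taken as replicate 1 and replicate 2. The study describes a single treatment time and speaks of 2 replicates per group, but the sources used here do not say what a day marks. If it marked a time of exposure after all, every SD, SE and p below would hold a difference in time as well as the spread between replicates. The question was how the RNA of these genes differed between each compound and DMSO, and between the compounds.

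Total counts lay between 9791659 and 17814595 per library. All 8 hepatocyte and HepG2 markers examined (ALB, AFP, APOA1, APOB, SERPINA1, TTR, TF and FGB) had counts in every library, and their summed level was 50370 to 54340 CPM (counts per 1000000 counts of a library) in DMSO and 34670 to 44480 CPM in the 6 treated libraries. Of 8 markers of blood, endothelial and stromal cells, 3 to 5 had a count in a library, with a summed level of 6.75 to 14.9 CPM that came mostly from ACTA2, and PTPRC and CD3E were at 0 in all 8 libraries. Nothing in the labels says whether the 2 samples of a group came from separate cultures, so the p-values measure only the spread between these samples. In bulk RNA, fewer cells that express a gene and less RNA per cell cannot be told apart.

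Glutathione is a tripeptide of glutamate, cysteine and glycine. Glutamate-cysteine ligase, made of the catalytic subunit GCLC and the modifier subunit GCLM, carries out the rate-limiting step of its synthesis, and glutathione synthetase, GSS, adds glycine. Glutathione peroxidases such as GPX2 and GPX4 reduce peroxides at the expense of glutathione, and glutathione reductase, GSR, restores the reduced form with NADPH. In the parallel system, thioredoxin, TXN, passes electrons to peroxiredoxins such as PRDX1, thioredoxin reductase, TXNRD1, recharges TXN with NADPH, and sulfiredoxin, SRXN1, repairs peroxiredoxins whose active cysteine has been over-oxidised. Several of these genes are known targets of the transcription factor NFE2L2, also called NRF2, which binds DNA at antioxidant response elements when cells meet oxidants or electrophiles.

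The letters of the antioxidant response element core, TGACNNNGC, were searched on both strands in windows of 300 bases, from 250 bases before to 50 bases after the annotated gene start (RefSeq, GRCh38.p14). Windows were found for 7 of the 10 genes, and GSS, GSR and PRDX1 were without one. The core was present for 3 genes, GCLM, GPX2 and TXNRD1, and was not in the windows of GCLC, GPX4, TXN and SRXN1. Some genes have several starts, and counted by window 4 of the 10 windows of these genes held it, beside 13.3% of the 35116 windows over all genes. The matches are printed because they show which of the genes carry these letters next to the start. Each is given 5′ to 3′ on the strand of the gene with 10 bases on either side, and the capitals mark the match, which reads GCNNNGTCA where it lies on the opposite strand.
GCLM, chr1:93909446-93909474, minus strand: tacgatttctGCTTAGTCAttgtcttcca
GPX2, chr14:64942849-64942877, minus strand: acctgtttttGCTAAGTCAtcctggggat
TXNRD1, chr12:104215670-104215698, plus strand: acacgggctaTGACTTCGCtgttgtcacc
TXNRD1, chr12:104215761-104215789, plus strand: gcgtccttcgGCTCCGTCAgttcccacag
TXNRD1, upstream of a further start, chr12:104286920-104286948, plus strand: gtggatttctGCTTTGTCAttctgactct

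A match is a description of the letters and not a binding site. Bases outside the windows were not searched, so a gene without a match here may carry the core further from its start. The AP-1 motif TGANTCA, which can share letters with the core, was in 7.71% of all windows and in 0 of the windows of these genes. Of the 3 genes with the core, GCLM and TXNRD1 passed the test described next under compounds 4 and 5, and GPX2 passed under none. Of the 4 genes with a window and no match, GCLC and SRXN1 passed under compounds 4 and 5, and GPX4 and TXN passed under none.

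In DMSO the 10 genes differed widely in level. Per kilobase of exon (exons of GENCODE 29), PRDX1 was the highest with 570 ± 48.5 CPM per kb (SD, n = 2), followed by GPX2 with 207 ± 11.7, TXN with 168 ± 5.22 and GPX4 with 115 ± 2.21. TXNRD1 had 63.6 ± 4.81, GSR 54.3 ± 3.85 and SRXN1 45.9 ± 2.34 CPM per kb. The glutathione synthesis genes were the lowest, with 17.9 ± 1.83 for GCLC, 11.6 ± 0.216 for GSS and 9.76 ± 0.197 CPM per kb for GCLM. Each pair of neighbours in this order was further apart than the sum of their SDs. The exon length joined all annotated exons of a gene and can exceed the length of the RNA present. The SDs do not hold this uncertainty, so the order between genes depends on the annotation. Under the compounds the means at the upper end kept their order (PRDX1, GPX2, TXN). GPX2 with 221.5 ± 27.0 and TXN with 203.8 ± 15.3 overlapped under compound 4. TXNRD1 stood at 125, 145 and 108 CPM per kb under compounds 4, 5 and 6, beside 122, 112 and 98.5 for GPX4. The SDs of TXNRD1, 23.4, 35.2 and 19.7, left these pairs overlapping.

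**Figure D1:**
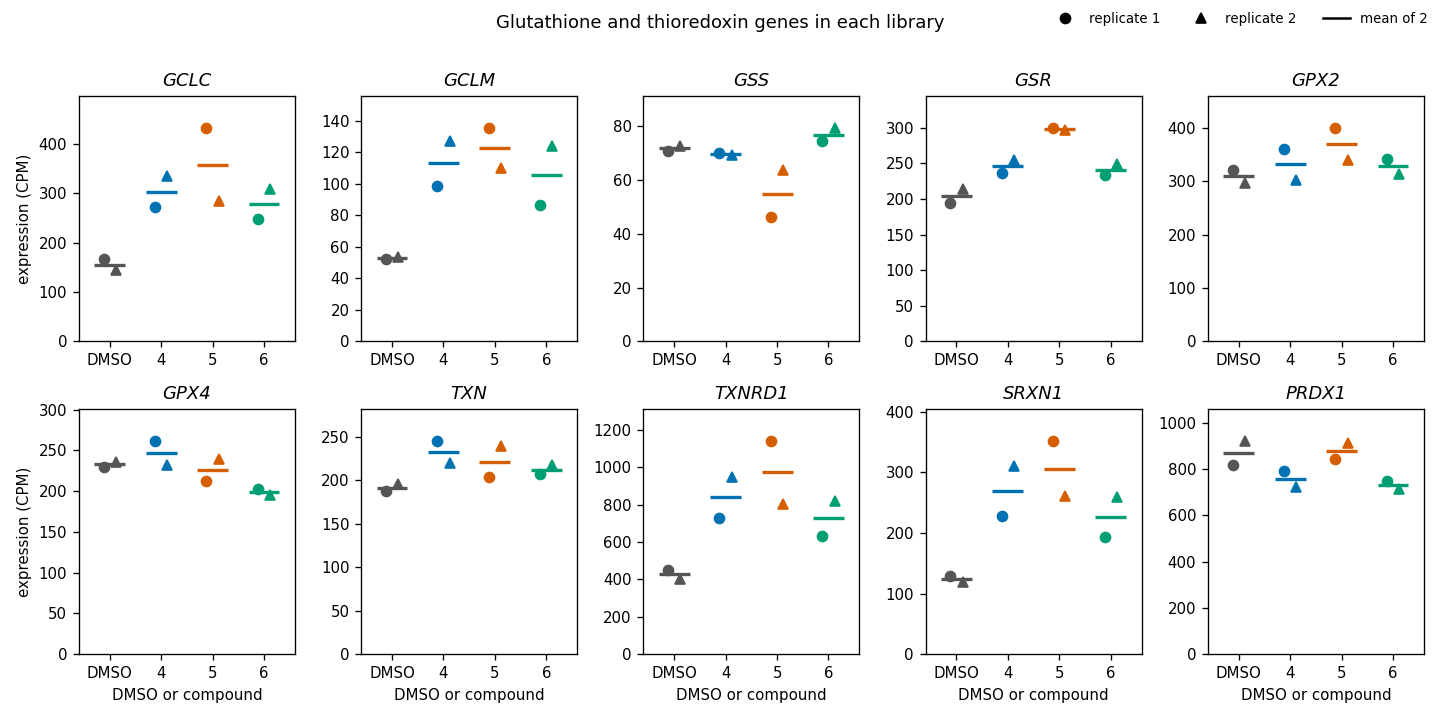
Expression of the 10 genes in CPM (vertical axes from 0, 1 scale per gene) in DMSO and under compounds 4, 5 and 6; circles are replicate 1, triangles replicate 2, and lines the mean of 2. All 6 treated libraries lie above both DMSO libraries for GCLC, GCLM, GSR, TXN, TXNRD1 and SRXN1, and the treated replicates of GCLC, GCLM, TXNRD1 and SRXN1 lie far apart.

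Both subunits of glutamate-cysteine ligase were higher under compounds 4 and 5. GCLC (6:53497341-53616970, minus strand, GRCh38) had 166 and 144 CPM in the DMSO libraries, 271 and 335 CPM under compound 4, 431 and 285 CPM under compound 5, and 247 and 308 CPM under compound 6. Every treated library was above both DMSO libraries, and compound 5 held the highest of them. GCLC rose under compound 4 by a log2-fold change of 0.97 ± 0.20 (SE, edgeR quasi-likelihood test, Benjamini-Hochberg adjusted p = 0.019), which is 1.96-fold, and under compound 5 by 1.21 ± 0.20 (edgeR adjusted p = 0.011), which is 2.31-fold. Under compound 6 the log2-fold change was 0.84 ± 0.20, and it did not pass the threshold of 0.05 (edgeR adjusted p = 0.079). GCLC shares exon sequence on its own strand with AL033397.1, which held 687 counts over the 8 libraries against 26647 for GCLC, so a small part of its counts is uncertain.

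GCLM (1:93885205-93909456, minus strand) moved like its partner. Its level was 52.2 and 53.7 CPM in DMSO, 98.8 and 127 CPM under compound 4, 135 and 110 CPM under compound 5, and 86.4 and 124 CPM under compound 6. Even the lowest treated library was above both DMSO libraries, which differed from each other by only a log2 value of 0.04. GCLM rose by 1.10 ± 0.19 on the log2 scale under compound 4 (edgeR adjusted p = 0.011) and by 1.21 ± 0.19 under compound 5 (edgeR adjusted p = 0.0096). With compound 6 the value was 0.99 ± 0.19, a 1.99-fold difference that stayed just above the threshold (edgeR adjusted p = 0.054).

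GSS (20:34928433-34956027, minus strand), the enzyme of the final synthesis step, did not pass the test under any compound. It had 70.7 and 72.6 CPM in DMSO, 69.8 and 69.3 CPM under compound 4, 46.2 and 63.5 CPM under compound 5, and 74.3 and 79.1 CPM under compound 6. Both libraries of compound 5 were below the others, and both of compound 6 were above them. Its log2-fold changes against DMSO were -0.04 (95% interval -0.37 to 0.28), -0.38 (-0.70 to -0.06) and 0.10 (-0.22 to 0.42) for compounds 4, 5 and 6, with edgeR adjusted p of 0.87, 0.12 and 0.75. Without replicate 2 of compound 5, the library nearer to DMSO, GSS passed the test under compound 5 with a log2-fold change of -0.63.

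Of the genes that use and restore glutathione, GSR changed under compound 5. GSR (minus strand) had 194 and 214 CPM in DMSO, 236 and 255 CPM under compound 4, 299 and 297 CPM under compound 5, and 233 and 249 CPM under compound 6. The compound 5 libraries lay close together and were the highest, and all treated libraries were above both DMSO libraries. GSR rose by 0.55 ± 0.10 under compound 5 (edgeR adjusted p = 0.015), which is 1.46-fold. Under compounds 4 and 6 the values were 0.27 ± 0.10 and 0.24 ± 0.10, and neither passed (edgeR adjusted p = 0.12 and 0.25).

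The peroxidases stayed near the DMSO level. GPX2 (14:64939152-64942905, minus strand), a selenoprotein best known from the gut epithelium, ranged from 297 to 322 CPM in DMSO and from 304 to 400 CPM in the treated libraries, and only those of compound 5 were both above DMSO. Against DMSO it had 0.10 (95% interval -0.18 to 0.38), 0.26 (-0.02 to 0.53) and 0.09 (-0.19 to 0.36) on the log2 scale, with edgeR adjusted p of 0.64, 0.20 and 0.74. GPX4 (19:1103926-1106791, plus strand), which reduces lipid hydroperoxides in membranes and protects cells from ferroptosis, had 230 and 236 CPM in DMSO and 195 to 261 CPM in treated cells. Only its compound 6 libraries, 203 and 195 CPM, were separate from DMSO, on the low side. Its log2-fold changes were 0.08 (-0.16 to 0.32), -0.04 (-0.28 to 0.19) and -0.23 (-0.47 to 0.01), and the edgeR adjusted p was 0.66, 0.81 and 0.29. For each of these genes the intervals leave out a doubling, the size seen for the ligase subunits.

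In the thioredoxin system, the reductase and sulfiredoxin rose, and thioredoxin and peroxiredoxin did not pass the test. TXNRD1 (12:104215779-104350305, plus strand), a cytosolic selenoprotein, had 450 and 404 CPM in DMSO, 728 and 950 CPM under compound 4, 1139 and 806 CPM under compound 5, and 634 and 821 CPM under compound 6. All treated libraries were well above DMSO, and replicate 1 of compound 5 was the highest. TXNRD1 rose by 0.98 ± 0.19 under compound 4 (edgeR adjusted p = 0.017), which is 1.97-fold, and by 1.19 ± 0.19 under compound 5 (edgeR adjusted p = 0.011), which is 2.28-fold. Under compound 6 the value of 0.77 ± 0.19 did not pass (edgeR adjusted p = 0.090).

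SRXN1 (20:646615-653370, minus strand) had the largest change of the 10 genes under compounds 4 and 5. It had 128 and 120 CPM in DMSO, 229 and 311 CPM under compound 4, 351 and 261 CPM under compound 5, and 194 and 259 CPM under compound 6. Again every treated library was above both DMSO libraries, and replicate 1 of compound 6 was the closest to them. SRXN1 rose by 1.12 ± 0.20 under compound 4 (edgeR adjusted p = 0.011) and by 1.30 ± 0.20 under compound 5 (edgeR adjusted p = 0.0085), 2.18-fold and 2.47-fold. Among all 13400 genes tested it ranked 457 from the highest log2-fold change under compound 4 and 249 under compound 5. With compound 6 it had 0.87 ± 0.20 (edgeR adjusted p = 0.073). The gene shares exon sequence on its strand with AL121758.1, which held 23 counts over all libraries against 22760 for SRXN1.

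TXN (9:110243811-110256640, minus strand) had 187 and 196 CPM in DMSO and 204 to 245 CPM in the treated libraries, all of them above DMSO. The differences of 0.28, 0.21 and 0.15 (log2) did not pass the test (edgeR adjusted p = 0.14, 0.24 and 0.51). PRDX1 (1:45511036-45523047, minus strand), the most abundant of the 10 per kilobase, had 816 and 920 CPM in DMSO. It stood at 792 and 722 CPM under compound 4, 842 and 912 CPM under compound 5, and 750 and 714 CPM under compound 6. Compound 4 and 6 libraries were below DMSO and compound 5 libraries between the DMSO values, and the log2-fold changes were -0.20 (-0.43 to 0.04), 0.02 (-0.22 to 0.25) and -0.25 (-0.48 to -0.01), none past the threshold (edgeR adjusted p = 0.26, 0.94 and 0.25). The count table also holds 7 rows named as pseudogenes of TXN and 1 of PRDX1, and these had 0 counts.

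**Figure D2:**
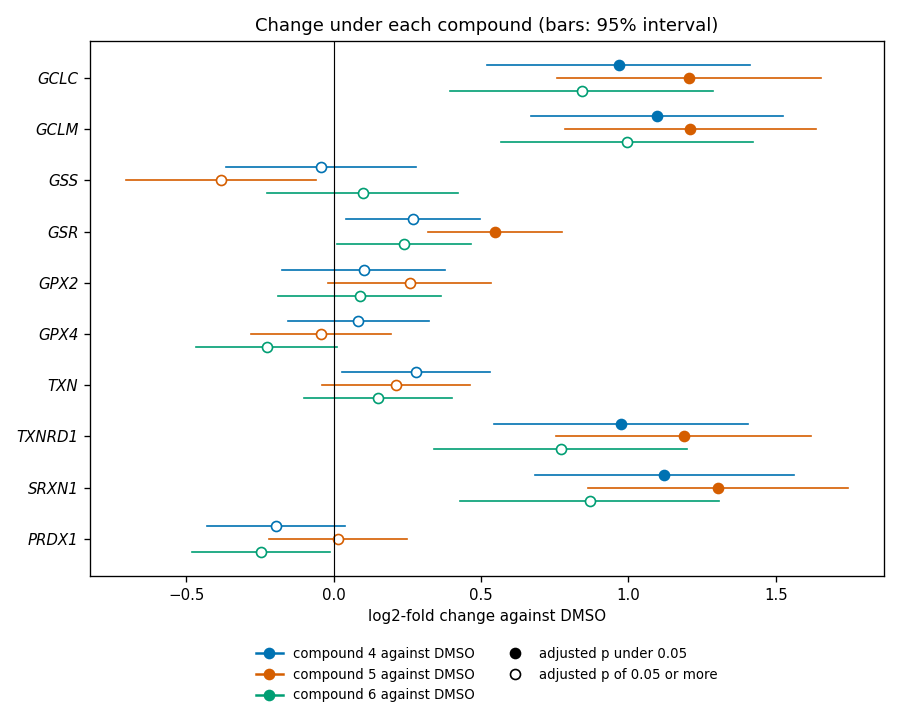
Log2-fold change of each gene under compounds 4, 5 and 6 against DMSO (horizontal axis) with 95% intervals; filled points passed an adjusted p of 0.05. GCLC, GCLM, TXNRD1 and SRXN1 lie between 0.77 and 1.30 under all compounds and are filled for compounds 4 and 5, GSR is filled for compound 5, and the other genes lie between -0.38 and 0.28.

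Counted over the list, 4 of the 10 genes were higher under compound 4 and 5 of the 10 under compound 5, and none was lower. Of all 13400 genes tested, 5.60% were higher under compound 4 and 5.35% under compound 5 by the same test. The 10 genes were chosen with earlier results of these data known, so the counts here and below describe the list and do not test it. Compound 4 had a median log2-fold change of 0.27 over the 10 genes, compound 5 of 0.40 and compound 6 of 0.19, beside 0.01, 0.00 and 0.02 for all tested genes. The 3 comparisons share the same DMSO samples, so that a deviation in these libraries enters all of them.

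Under compound 6 the edgeR test called 0 of the 10 genes, with 0.493% of all tested genes called higher. At an unadjusted p under 0.05 it held 6 of the 10 (GCLC, GCLM, GSR, TXNRD1 and SRXN1, higher, and PRDX1, lower), against 18.6% of all genes. DESeq2 called 4 of the 10 higher, with 2.61% of all genes called higher, and an edgeR fit of only the 4 libraries of this comparison also called 4, with 4.39% of all genes. The 4 were GCLC, GCLM, TXNRD1 and SRXN1 in both. Compound 6 thus lay close to the threshold for these genes, on a side that depended on the test and on the libraries fitted together. The main fit shared 1 estimate of the spread over all 8 libraries. Over all tested genes, the median absolute log2 difference between replicates was 0.20 in compound 5 and 0.15 in compound 6. The bearing of this on the calls was not tested. The log2-fold changes of the 4 genes were 0.77 to 0.99 under compound 6, 0.97 to 1.12 under compound 4 and 1.19 to 1.30 under compound 5. None of the 4 passed the edgeR test between compounds, so a weaker response to compound 6 was not shown.

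By separation of the libraries, 6 genes had both compound 4 libraries above both DMSO libraries, as 30.4% of all tested genes did, and 2 had them below, as 28.0% did. Under compound 5 the numbers were 7 above and 1 below, with 31.0% and 28.5% of all genes. Compound 6 gave 7 above and 2 below, with 29.3% and 26.0% of all genes.

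The calls rested on few libraries. Under compound 4 all 4 were lost without replicate 1 of DMSO, without replicate 2 of DMSO or without replicate 2 of compound 4, and the number of genes called over the whole table in either direction fell from 1275 to 390, 43 and 152 with the same libraries left out. Under compound 5 all 5 were lost without either DMSO library or without replicate 1 of compound 5, and the calls over the whole table fell from 1112 to 77, 46 and 118. The direction held in each of these fits: with any 1 library left out, the log2-fold changes under compounds 4 and 5 stayed between 0.77 and 1.51 for GCLC, GCLM, TXNRD1 and SRXN1, and between 0.47 and 0.63 for GSR under compound 5.

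None of the 10 genes passed the edgeR test between compounds at an adjusted p of 0.05. Compounds 4 and 6 share the methylene bridge between their methylphenol rings and carry tert-butyl or cyclohexyl groups beside the hydroxyl, while compound 5 has a bridge that carries a methyl group and further tert-butyl groups in place of the ring methyl. Each was given at its own growth-inhibiting concentration, which came from an assay with a longer exposure than the treatment for RNA. The study describes these concentrations as rather comparable among the 3 compounds. A difference in structure and one in dose still cannot be told apart. Between compounds 4 and 5, 0 of the 10 genes passed and 2, GSS and GSR, had an unadjusted p under 0.05, against 0.313% and 16.2% of all tested genes. Between compounds 4 and 6, 0 passed and 1, GPX4, had an unadjusted p under 0.05, against 0% and 7.05% of all genes. Between compounds 5 and 6, 0 passed and 4, GSS, GSR, SRXN1 and PRDX1, had an unadjusted p under 0.05, against 1.03% and 18.5% of all genes. DESeq2 called 0 of the 10 genes in each comparison between compounds. Over the whole table it called 194 of 12341 genes between compounds 4 and 5. The numbers were 59 of 11893 between compounds 4 and 6 and 364 of 11893 between compounds 5 and 6.

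The intervals show how large a difference could have gone unseen. GCLC was lower under compound 4 than under compound 5 by a log2 value with a 95% interval of -0.68 to 0.20, and SRXN1 had an interval of -0.61 to 0.25 in the same comparison. Between compounds 4 and 6 the intervals were -0.31 to 0.57 for GCLC, -0.31 to 0.52 for GCLM, -0.22 to 0.63 for TXNRD1 and -0.18 to 0.69 for SRXN1. Compound 5 minus compound 6 gave 0.37 (-0.07 to 0.81) for GCLC, 0.22 (-0.20 to 0.63) for GCLM, 0.42 (-0.01 to 0.85) for TXNRD1 and 0.43 (0.00 to 0.87) for SRXN1.

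GSR, called only under compound 5, was higher there than under compound 4 by 0.28 on the log2 scale (edgeR adjusted p = 0.23) and higher than under compound 6 by 0.31 (edgeR adjusted p = 0.15), so a difference between the compounds was not shown for it. GPX4 was higher under compound 4 than under compound 6 by 0.31 (0.07 to 0.55, edgeR adjusted p = 0.55). PRDX1 was higher under compound 5 than under compound 6 by 0.26 (0.03 to 0.50, edgeR adjusted p = 0.23).

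**Figure D3:**
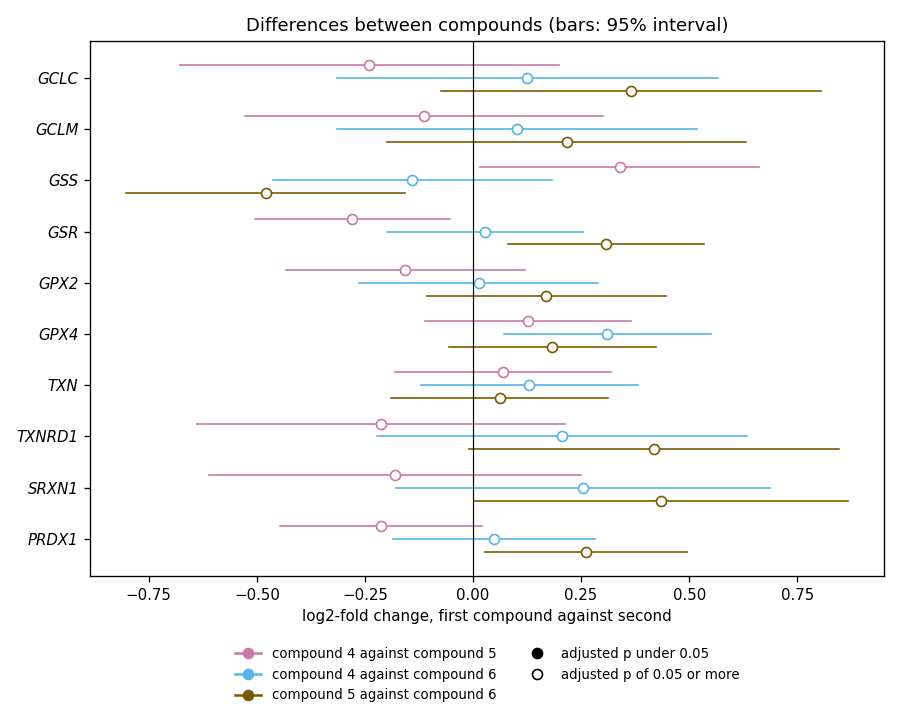
Log2-fold change of each gene between 2 compounds (horizontal axis, the first named compound against the second) with 95% intervals; filled points would have passed an adjusted p of 0.05, and all are open. The point furthest from 0 is GSS at -0.48, compound 5 against compound 6.

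GCLC, GCLM, TXNRD1 and SRXN1 also varied together between the replicates of a compound. Replicate 1 of compound 5 had the highest level of the 6 treated libraries for all 4 genes and replicate 2 of compound 4 the second highest, while replicate 1 of compound 4 came next to last and replicate 1 of compound 6 last. Expressed as log2 of replicate 2 over replicate 1, GCLC differed by 0.30 within compound 4, -0.60 within compound 5 and 0.32 within compound 6. TXNRD1 gave 0.38, -0.50 and 0.37, SRXN1 gave 0.44, -0.43 and 0.42, and GCLM gave 0.37, -0.30 and 0.53 for the same compounds. In the DMSO pair the differences were between -0.21 and 0.04. The median absolute difference over all tested genes was between 0.15 and 0.20 in the 4 groups, and the 95th percentile was 0.71 to 0.73 in the treated groups, so the treated pairs were further apart in these 4 genes than in the median gene and closer than that percentile. GSS went the other way within compound 5, at 0.46, and GSR differed by -0.01 there.

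**Figure D4:**
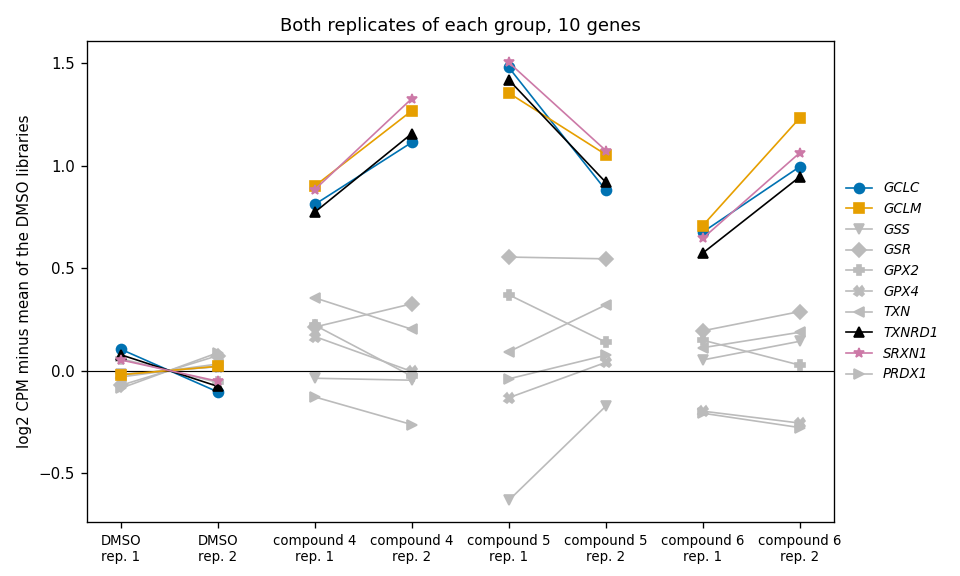
Log2 CPM of each gene minus its mean in the DMSO libraries (vertical axis) in the 8 libraries, with a line between the 2 replicates of a group; GCLC, GCLM, TXNRD1 and SRXN1 are coloured or black and the other 6 genes grey. The 4 genes shift together, upwards from replicate 1 to 2 in compounds 4 and 6 and downwards in compound 5, with every treated library at least 0.57 above the DMSO mean.

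CYP2C19, the introduced enzyme, shared this order of libraries under compounds 4 and 5 but not under compound 6. It had 27.7 and 16.4 CPM in DMSO, 31.4 and 44.3 CPM under compound 4, 52.8 and 37.96 CPM under compound 5, and 23.9 and 21.2 CPM under compound 6. Like the 4 genes, it was highest in replicate 1 of compound 5 and second highest in replicate 2 of compound 4, but the compound 6 libraries lay within the DMSO range, with replicate 2 the lower one. CYP2C19 rose under compound 5 by 1.05 ± 0.26 (edgeR adjusted p = 0.040), and under compounds 4 and 6 it had 0.79 (edgeR adjusted p = 0.086) and 0.04 (edgeR adjusted p = 0.95). Its part in the values of the 4 genes was not tested.

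Around the 10 genes, 66 further genes of glutathione, thioredoxin, peroxide and selenium metabolism were examined in 5 groups, of which 63 could be tested. Among genes that supply or break down glutathione, 12 of 13 were tested (CHAC1 was too low), and 2 rose and 1 fell under compound 4, 3 rose under compound 5 and 1 rose under compound 6. Of all tested genes, 3.91%, 2.95% and 0.0821% were lower under compounds 4, 5 and 6, beside the shares of higher genes given for the 10 genes (5.60%, 5.35% and 0.493%). The median log2-fold changes of the group were -0.02, -0.14 and 0.12, close to those of all genes.

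SLC7A11, the cystine transporter that brings in the cysteine for glutathione, was the gene of this group that passed in edgeR under all 3 compounds. It had 64.9 and 56.6 CPM in DMSO, 109 and 158 CPM under compound 4, 258 and 137 CPM under compound 5, and 168 and 218 CPM under compound 6. All treated libraries were above DMSO, and SLC7A11 rose by 1.14, 1.70 and 1.67 on the log2 scale (edgeR adjusted p = 0.037, 0.011 and 0.048). Its partner chain SLC3A2, 225 and 220 CPM in DMSO, rose under compounds 4 and 5 by 1.24 and 1.99 (edgeR adjusted p = 0.033 and 0.0093) and had 0.92 under compound 6 (edgeR adjusted p = 0.15). CTH, which makes cysteine from cystathionine, rose by 1.40 under compound 5 (edgeR adjusted p = 0.016). It had 0.79 and 0.99 under compounds 4 and 6 (edgeR adjusted p = 0.090 and 0.11), and DESeq2 called it under all 3 compounds. GGT7, of the gamma-glutamyltransferase family, fell by 0.49 under compound 4 (edgeR adjusted p = 0.035) and was not called by DESeq2. Only DESeq2 called ABCC1 (compounds 4 and 5), GGT1 (compound 5) and CBS (compound 6). CHAC2, which degrades glutathione, had the lowest values, -0.62, -0.63 and -0.45, and did not pass.

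Among the other glutathione peroxidases, glutaredoxins and glyoxalases, 9 of 10 were tested (GPX8 was too low), with medians of -0.08, -0.27 and -0.23. GLRX, the cytosolic glutaredoxin that removes glutathione from protein thiols, rose under all 3 compounds, by 1.24, 0.98 and 0.67 (edgeR adjusted p = 0.0011, 0.0030 and 0.040). It had 129 and 132 CPM in DMSO, 311 and 303 CPM under compound 4, 272 and 241 CPM under compound 5, and 197 and 217 CPM under compound 6, and the replicates of each group lay close together. GLO1, which clears methylglyoxal with glutathione, fell by 0.67 under compound 4 and by 0.48 under compound 5 (edgeR adjusted p = 0.016 and 0.049), and had -0.36 under compound 6 (edgeR adjusted p = 0.18). No other gene of this group passed.

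In the wider thioredoxin family all 9 genes were tested, with medians of -0.13, -0.14 and -0.09. Under compounds 4 and 6 none passed in edgeR or DESeq2 (DESeq2 called 10.8% and 3.91% of all genes), and 3 and 1 of the 9 had an unadjusted p under 0.05 in edgeR, near the 27.5% and 18.6% of all genes at this limit. Under compound 5, 2 fell, beside 2.95% of all genes. These were TXNIP, a protein that binds and restrains thioredoxin, by 0.57 (edgeR adjusted p = 0.019), and TXNRD3, a further reductase, by 0.70 (edgeR adjusted p = 0.050, just under the threshold). The highest value of the group was 0.29 for TXNL1, a thioredoxin-like protein, under compound 4 (edgeR adjusted p = 0.18).

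Among 15 genes for the removal of peroxide, superoxide and methionine sulfoxide, 14 were tested (MSRB3 was too low), and the medians were -0.13, -0.16 and -0.19. In edgeR the stress-responsive sestrins were the ones that passed. DESeq2 called 2 genes under compound 4, CAT (catalase) and PRDX2, beside 10.8% of all genes. Under compound 5 it called 3, SESN1, CAT and SESN2, beside 1284 of 12341 genes. CAT had -0.50 and -0.51 under compounds 4 and 5 (edgeR adjusted p = 0.068 and 0.065). PRDX2 had -0.48 under compound 4 (edgeR adjusted p = 0.061). SESN1 fell by 0.65 under compound 4 and by 0.70 under compound 5 (edgeR adjusted p = 0.041 and 0.036), and SESN2 rose by 1.00 under compound 5 (edgeR adjusted p = 0.046). Under compound 4 the group ran from -1.07 for SESN3 (edgeR adjusted p = 0.082) to 0.51 for SOD2, the mitochondrial superoxide dismutase (edgeR adjusted p = 0.13). Under compound 6 none of the 14 passed in edgeR, beside 0.493% of all genes higher and 0.0821% lower. Of the 14, 4 had an unadjusted p under 0.05 in edgeR, against 18.6% of all genes. DESeq2 called 1, SESN2, beside 3.91% of all genes.

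GPX2, GPX4 and TXNRD1 are selenoproteins, which carry selenocysteine in their active site. The group of other selenoproteins and synthesis factors held 19 genes, all tested, with medians of 0.05, -0.12 and -0.07. Selenoproteins placed in the groups above, such as GPX3 and TXNRD3, were not among the 19. Under compound 4, DIO1, a thyroid hormone deiodinase, fell by 1.35 (edgeR adjusted p = 0.044) and SELENOO, a mitochondrial protein, fell by 0.95 (edgeR adjusted p = 0.0084). Under compound 5, SELENOS and SELENOK, membrane proteins of the endoplasmic reticulum, rose by 0.91 and 0.67 (edgeR adjusted p = 0.0047 and 0.017). SELENOP, the selenium carrier secreted by the liver, fell there by 0.48 (edgeR adjusted p = 0.039) and was named after its value was seen. With compound 6, 0 of the 19 passed in edgeR or DESeq2, beside 0.493% of all genes higher and 0.0821% lower in edgeR, and 2 had an unadjusted p under 0.05 against 18.6% of all genes.

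**Figure D5:**
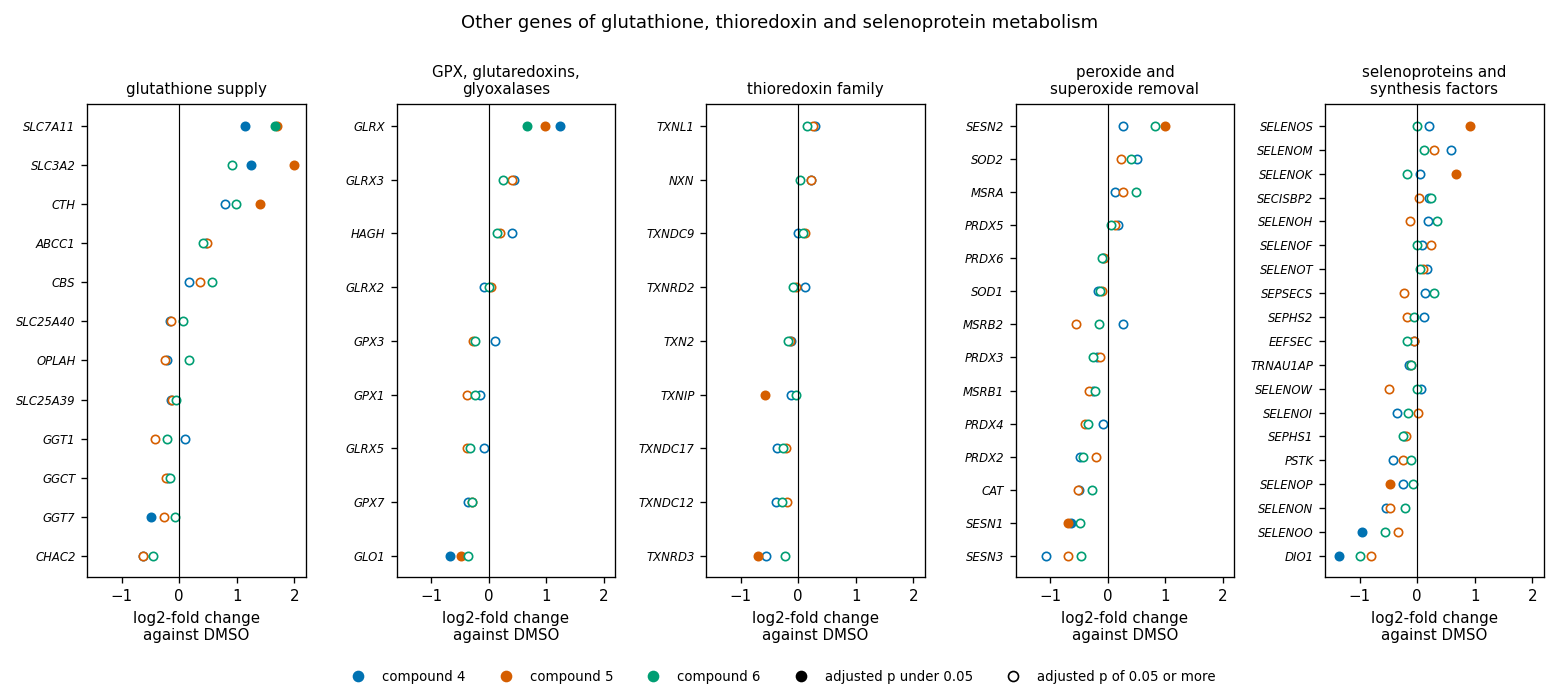
Log2-fold changes against DMSO (horizontal axes) of the 63 further genes tested, in 5 groups, under compound 4 (blue), 5 (orange) and 6 (green); filled points passed an adjusted p of 0.05. SLC7A11 and GLRX are filled for all 3 compounds, and most points of every group are open.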

How the data were processed

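Libraries of mRNA isolated from total RNA were sequenced, which gave gene-level estimated counts that the authors made with Salmon 1.5.0 (per the labels, with FastQC 0.12.0 and GRCh38) and tximeta and deposited without normalization. The table held 60230 genes and 8 samples. Column names mark replicate 1 of DMSO and replicate 1 of compound 4 as merged, and no other sample. What was merged is not given there, and its bearing on the replicate differences was not tested. The kit was directional, but use of the strand in counting is not given in the sources used here. Positions were taken from GENCODE 29, which covered 57972 genes. The tests were run with edgeR 4.0.16 under R 4.3.3 (TMM, filterByExpr at a minimum count of 10, 13400 genes, quasi-likelihood test in 1 fit of 8 samples, Benjamini-Hochberg over all genes, threshold 0.05). CPM values used TMM-scaled library sizes. DESeq2 1.42.0 was an alternative. The scripts were tested on simulated data. The 10 genes and the further gene groups were chosen with earlier results of these data known. In each further group the genes named were those past the threshold in most comparisons with DMSO, up to 4, and the highest and lowest. Genes of the glutathione supply and peroxide removal groups that DESeq2 called were named as well. The pairing by day came from the labels. Replicate differences correlated between groups over 13400 genes with r between -0.149 and 0.236.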

Additional observations from a re-analysis of the deposited data

Results flagged for a closer look

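GSS, the glutathione synthetase, passed the edgeR test against DMSO under no compound, but its libraries lay on different sides of DMSO. Both libraries of compound 6 were above both DMSO libraries (log2-fold change 0.0977), while both libraries of compound 5 (-0.3817) and both of compound 4 (-0.0428) were below them. Of all tested genes, 29.3% lay above both DMSO libraries under compound 6, and 28.5% and 28.0% lay below both under compounds 5 and 4. A direct comparison gave -0.48 for compound 5 against compound 6 (edgeR adjusted p = 0.13) and -0.14 for compound 4 against compound 6 (edgeR adjusted p = 0.89), so neither difference passed the threshold. The cause of the pattern was not tested.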

How the results depend on the processing

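Of 840 refits of single genes, 759 kept their direction and their side of the threshold, 28 passed it newly, 27 no longer passed, and 26 changed sign. The number of calls against DMSO, among the 10 genes and over the whole table, depended on which library was left out. With any 1 library left out, the log2-fold change under compound 6 against DMSO was 0.676 to 0.981 for GCLC and 0.711 to 1.222 for GCLM. It was 0.575 to 0.933 for TXNRD1 and 0.648 to 1.051 for SRXN1. GSS gave -0.73 to -0.272 for compound 5 against compound 6. Under other settings, compound 6 against DMSO gave 4 calls among the 10 genes with DESeq2, beside 518 of 13236 genes over the whole table. It gave 4 with no filter on low counts (1355 of 23080) and 4 with only the 4 samples compared (1023 of 12998). With at least 10 counts in every sample it gave 1 (198 of 12091), and the main fit called 77 of 13400. Compound 5 against compound 6 gave 3 with no filter (990 of 23080), where the main fit called 138 of 13400 genes. With the replicate block, which pairs the samples by day, 4, 5 and 0 of the 10 genes were called against DMSO. Over the whole table it called 1699, 1429 and 68 of 13400 genes there. Between compounds (4 and 5, 4 and 6, 5 and 6) it called 0 of the 10 each time, beside 128, 1 and 269 of 13400. No call changed for the 10 genes.

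The signs that changed belonged to genes that did not pass. PRDX1 under compound 5 against DMSO had -0.006 with at least 10 counts in every sample, and -0.079 to 0.109 with a library left out. Leaving out 1 library gave, against DMSO, -0.042 to 0.221 for GPX2 and -0.018 to 0.166 for GPX4 under compound 4, and -0.129 to 0.029 for GPX4 under compound 5. For compound 4 against compound 5 it gave -0.512 to 0.096 for GCLC, -0.314 to 0.053 for GCLM, -0.033 to 0.185 for TXN, -0.445 to 0.064 for TXNRD1 and -0.425 to 0.054 for SRXN1. Compound 4 against compound 6 gave -0.036 to 0.293 for GCLC, -0.128 to 0.388 for GCLM, -0.032 to 0.081 for GSR, -0.119 to 0.131 for GPX2, -0.001 to 0.403 for TXNRD1 and -0.024 to 0.112 for PRDX1. Compound 5 against compound 6 gave -0.020 to 0.506 for GCLM and -0.057 to 0.171 for TXN. The causes were not tested. A group with 1 library left was assumed to vary like the others. Depth and the 2 libraries per group both limit the precision.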
